A study of Mus musculus with 48 samples.

Results

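The mRNAs of 10 genes that carry messages out of the nucleus or mark nuclear RNA for decay were followed after transcription was blocked in mouse embryonic stem cells. The genes were chosen by name and matched from the gene identifiers of the files to mouse symbols, and all 10 were found among 23862 identifiers. They are the export receptor subunits Nxf1 and Nxt1, the THO subunits Thoc1, Thoc2 and Thoc5, the RNA helicase Ddx39b and the adaptor Alyref, the large cap-binding subunit Ncbp1, and the nuclear poly(A)-binding protein Pabpn1 with its zinc-finger partner Zfc3h1. Of these, 8 were listed in all 48 libraries, Pabpn1 in 47 and Nxt1 in 28.

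An mRNA leaves the nucleus as a packaged particle. The cap-binding complex and the transcription and export complex (TREX), which is built from THO, the helicase and the adaptor, load onto the transcript while it is made and spliced, and then hand it to the Nxf1-Nxt1 heterodimer, which passes through the nuclear pore. Polyadenylated RNA that stays in the nucleus can instead be bound by Pabpn1 and Zfc3h1, which with the helicase Mtrex form the poly(A) tail exosome targeting (PAXT) connection to the RNA exosome. Here the transcripts of these factors were measured, not the proteins and not export itself.

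The cells were E14TG2a, an established mouse embryonic stem cell line grown in "2i + LIF" medium, and all of them received 1 µM flavopiridol, which inhibits the kinase needed by RNA polymerase II to enter elongation. Polyadenylated RNA was sequenced from the total extract and from nucleus, cytosol and membrane fractions after 30, 60, 120 and 240 min, with 3 independently passaged replicates in each of the 16 groups. The fractions were made with detergents from the same harvested cells, so the membrane fraction is what a stronger detergent released after the cytosol was removed. Each deposited value is a ratio of a gene's level to its level in the same fraction before the drug, so a ratio of 1 means no change and ratios cannot rank genes or fractions by abundance. Whether each replicate was divided by its own 0 min library or by a pooled level is not given in the sources used here. If by its own, the spread between replicates includes that of the 0 min libraries, which are not analysed here.

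The libraries listed between 15067 and 19501 genes, and their read depth is unknown. The median gene's ratio fell from 0.818 to 0.892 in the 30 min total libraries to 0.468 to 0.506 at 240 min. The first nuclear replicate at 30 min stood apart, with a median ratio of 0.592 against 0.949 and 0.823 in the others, and 7 of the 10 factors had their lowest 30 min nuclear ratio in it. Of 10 stem cell markers, 8 were listed in all 48 libraries, Zfp42 in 47 and Esrrb in 37. Of 10 markers of other cell types none was in all 48. Among these, however, T was listed in 46 libraries, Col1a1 in 44, Thy1 in 43 and Gata6 in 42, and the rest in 12 or fewer. The ratios do not give the level of any marker. A gene that is not listed need not be absent, since Chtop and Zc3h18, which are widely expressed, were listed in 0 libraries.

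Changes over time are given as the slope of the log2 ratio per hour with its standard error, fitted by limma to the 12 libraries of a fraction, with p-values adjusted over all genes. A slope is called falling or rising when its adjusted p is under 0.05. In total RNA 4 of 9 factors tested fell, against 56.9% of all 12762 genes tested. Of nuclear transcripts 6 of 9 fell, against 61.9% of genes. Of cytosolic ones 6 of 9 fell, against 67.1%, and of membrane ones 5 of 8, against 62.2%. None rose in any fraction, where 3.39%, 3.32%, 2.95% and 4.09% of genes did, and 5 of 9, 3 of 9, 3 of 9 and 3 of 8 factors did not pass the test. These shares lie near the background, so the counts say nothing particular about the factors as a group, and their values are given one by one. The ratios are scaled within each library on genes known to be long-lived, so the number of cells harvested was not measured.

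**Figure D1:**
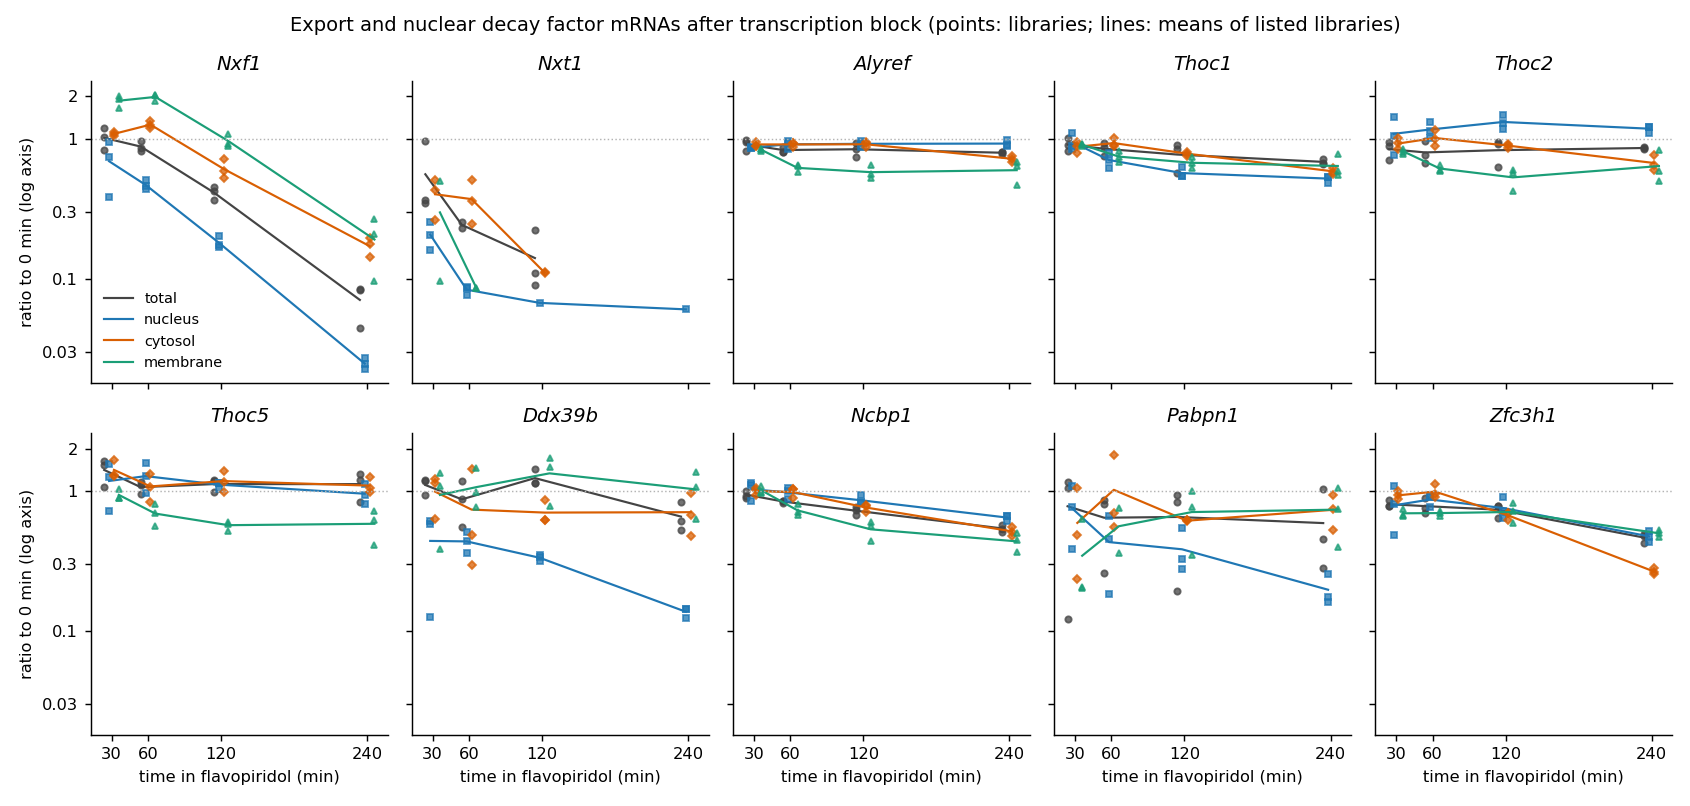
Ratio to 0 min of each factor (log axis) against time in flavopiridol (min); points are libraries, lines join the means of the listed libraries, and colours mark the fractions. Nxf1 fell to 0.0228 to 0.267 by 240 min over the 4 fractions, Nxt1 has few points because most late libraries do not list it, and the points of Ddx39b and Pabpn1 scatter widely.

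The slope of the median gene was -0.22 for total, -0.30 for nuclear, -0.28 for cytosolic and -0.26 for membrane-fraction RNA. The authors scaled the libraries on genes known to be long-lived, and other scalings move every slope of a fraction by the same amount. When each library was centred on its own median gene, 4 factors rose in each fraction, against 28.8%, 29.6%, 29.4% and 28.3% of genes for total, nuclear, cytosolic and membrane RNA, and 1, 1, 2 and 1 fell, against 31%, 29.2%, 32.4% and 30.9%. Over all genes in total RNA that centring gave 3961 falling and 3672 rising calls in place of 7262 and 432. Scaled to the mRNAs encoded in mitochondrial DNA, 8 of 9 factors fell in total, 1 of 9 in nuclear, 2 of 9 in cytosolic and 7 of 8 in membrane RNA, where 72.4%, 21%, 27.3% and 85.3% of genes fell, so these counts too moved with those of all genes. The mitochondrial scaling rested on few mRNAs, 10 for total, 7 for nuclear, 7 for cytosolic and 11 for membrane RNA. Only the fall of Nxf1 in every fraction and that of Zfc3h1 in the cytosol were called under all 3 scalings. The other slopes are therefore best read relative to the median gene.

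Nxf1 encodes the large subunit of the mRNA export receptor (GRCm38 chromosome 19, 8757073 to 8770922, plus strand). In total RNA its ratios were 0.827, 1.19 and 1.02 at 30 min, 0.814, 0.855 and 0.968 at 60 min, 0.367, 0.451 and 0.424 at 120 min, and 0.0448, 0.0836 and 0.0847 at 240 min. All 3 late values lay below every earlier one, and the mean fell 14.3-fold between 30 and 240 min. The slope was -1.15 ± 0.073 per h (SE, limma, adjusted p = 5.92e-08), with 2.59% of genes lower, and its difference from the median gene was -0.92.

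In the nucleus the decline of Nxf1 was deeper. Its nuclear ratios were 0.387, 0.948 and 0.739 at 30 min, 0.440, 0.458 and 0.509 at 60 min, 0.202, 0.171 and 0.174 at 120 min, and 0.0246, 0.0228 and 0.0274 at 240 min, a 27.7-fold fall in the mean. The slope was -1.36 ± 0.080 (limma, adjusted p = 9.20e-08), with only 1.39% of genes lower. The low 30 min value came from the library that stood apart, and without it the slope was -1.43.

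In the cytosol and on membranes the Nxf1 ratio stayed at or above its starting level before it fell. Its cytosolic ratios were 1.05, 1.11 and 1.08 at 30 min and 1.25, 1.19 and 1.34 at 60 min, and then 0.588, 0.718 and 0.525 at 120 min and 0.143, 0.177 and 0.196 at 240 min. In the membrane fraction they were 1.93, 2.01 and 1.65 at 30 min and 2.06, 1.85 and 2.05 at 60 min, then 0.882, 0.915 and 1.09 at 120 min and 0.0976, 0.267 and 0.210 at 240 min. At 30 and 60 min the mean membrane ratio was above that of 98.4% and 98.5% of genes, and none of the 6 values overlapped those of the cytosol at the same time. The slopes were -0.83 ± 0.061 for cytosolic and -1.03 ± 0.090 for membrane RNA (limma, adjusted p = 9.73e-08 and 5.58e-07).

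An exponential decay fitted on the linear scale gave Nxf1 half-lives of 68.6 min for total, 48.1 min for nuclear, 95 min for cytosolic and 84.2 min for membrane-fraction RNA, with SDs over the 3 single-replicate series of 6.29, 25.9, 6.09 and 13.5 min. The median gene had 244, 176, 213 and 219 min. That fit put the Nxf1 level at 0 min at 1.45, 1.08, 1.55 and 2.68 rather than 1, so outside the nucleus it describes mainly the later decline. Fits held to a ratio of 1 at 0 min gave half-lives of 113, 52.6, 190 and 539 min.

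Nxt1, the small subunit that Nxf1 needs to bind the pore (chromosome 2, 148672601 to 148676027, plus strand), was listed in 11 of 12 libraries at 30 min, 10 at 60 min, 6 at 120 min and 1 at 240 min. Its total RNA ratios were 0.347, 0.959 and 0.368 at 30 min, and 0.0911, 0.222 and 0.110 at 120 min, with only 0.232 and 0.255 in the libraries that listed it at 60 min. In the nucleus they were 0.161, 0.253 and 0.208 at 30 min and 0.0870, 0.0771 and 0.0879 at 60 min. Nuclear Nxt1 at 30 and 60 min was thus lower than nuclear Nxf1 in each of the same libraries, and 2.56% and 1.99% of genes had lower means. Its cytosolic ratios were 0.511, 0.265 and 0.430 at 30 min and 0.362, 0.246 and 0.506 at 60 min, where Nxf1 was above 1 in all 6.

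Nxt1 was not in all 12 libraries of any fraction and so was outside the test. With genes listed in at least 6 of the 12 libraries admitted, its slope was -1.24 ± 0.33 for total RNA (limma, adjusted p = 0.0131), -1.23 ± 0.29 for cytosolic RNA (adjusted p = 0.00645) and -0.46 ± 0.20 for nuclear RNA (adjusted p = 0.0788). That fit drops the libraries in which Nxt1 is not listed, which are mostly the late ones. Genes at 0 are not listed, so the listed Nxt1 values can lie near the detection floor. How many reads they rest on was not tested. This limits the Nxt1 slopes, its rank among genes and its comparison with Nxf1. The paralog Nxt2 was listed in 39 libraries, passed the filter only in the cytosol, where its slope was 0.036 ± 0.19 (adjusted p = 0.877), and had membrane ratios of 3.57, 2.41 and 2.02 at 240 min.

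THO is the core of TREX, and 3 of its subunits were chosen. Thoc1 gave total RNA ratios of 0.817, 1.00 and 0.901 at 30 min, 0.748, 0.866 and 0.931 at 60 min, 0.566, 0.849 and 0.899 at 120 min, and 0.722, 0.655 and 0.674 at 240 min. Only its 240 min values lay wholly below the 30 min ones. Its slope was -0.11 ± 0.043 for total RNA (limma, adjusted p = 0.0383), -0.21 ± 0.051 for nuclear RNA (adjusted p = 0.00250), -0.18 ± 0.027 for cytosolic RNA (adjusted p = 4.54e-05) and -0.13 ± 0.041 for membrane RNA (adjusted p = 0.0150). Without the second or the third replicate the total RNA slope was -0.088 or -0.10 and was not called (adjusted p = 0.259 and 0.192), and without the first or the second the membrane slope was -0.088 or -0.11 and was not called (adjusted p = 0.221 and 0.109). Relative to the median gene, Thoc1 was 0.11, 0.089, 0.095 and 0.13 higher in total, nucleus, cytosol and membrane.

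Thoc2, the scaffold subunit of THO (chromosome X, 41794991 to 41920674, minus strand), was above its starting level in 11 of 12 nuclear libraries. Its nuclear ratios were 0.769, 1.43 and 1.05 at 30 min, 1.02, 1.14 and 1.33 at 60 min, 1.47, 1.3 and 1.18 at 120 min, and 1.22, 1.10 and 1.22 at 240 min. The exception at 30 min was again the library that stood apart. In the cytosol the same transcript gave 0.839, 0.925 and 1.01 at 30 min and 0.762, 0.603 and 0.650 at 240 min, and in the membrane fraction 0.778, 0.850 and 0.810 at 30 min and 0.498, 0.587 and 0.831 at 240 min. At 240 min all 3 nuclear values lay above the 9 values of the other fractions. Only the cytosolic slope was called, at -0.15 ± 0.035 (limma, adjusted p = 0.00152). The nuclear slope was 0.038 ± 0.057 (adjusted p = 0.580), 0.34 above the median gene and higher than that of 88.5% of genes.

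Thoc5, another THO subunit (chromosome 11, 4895320 to 4928867, plus strand), was listed above 1 in 9 total, 8 nuclear, 9 cytosolic and 1 membrane libraries. In the cytosol it gave 1.27, 1.29 and 1.67 at 30 min and 1.24, 0.976 and 1.04 at 240 min. In the membrane fraction the ratios were 0.886, 1.02 and 0.894 at 30 min, 0.802, 0.562 and 0.699 at 60 min, 0.582, 0.520 and 0.603 at 120 min, and 0.413, 0.615 and 0.716 at 240 min. All membrane values at 240 min lay below those of the 3 other fractions at that time. The membrane slope was -0.17 ± 0.063 (limma, adjusted p = 0.0307), which was -0.095 and not called without the first replicate (adjusted p = 0.353), and the difference from the cytosolic slope was -0.10 ± 0.085 (adjusted p = 0.558). The nuclear slope was -0.091 ± 0.070 (adjusted p = 0.266), and without the first replicate it was -0.17 and called (adjusted p = 0.0279). A processed pseudogene, AA413626, overlaps Thoc5 on the same strand and was listed in 16 libraries, so reads may be shared between them.

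The other THO subunits were measured beside these. Thoc3 fell in total RNA (slope -0.10 ± 0.032, limma, adjusted p = 0.0140), in the cytosol (-0.13, adjusted p = 4.90e-05) and in the membrane fraction (-0.11, adjusted p = 0.0216), with -0.057 in the nucleus (adjusted p = 0.179). Thoc7 was called only in the cytosol (-0.14 ± 0.030, adjusted p = 0.00148), and its slope there was lower than in the nucleus by 0.16 (adjusted p = 0.0290) and than in the membrane fraction by 0.18 (adjusted p = 0.00696). Thoc6 was listed in 25 libraries, none of them nuclear, and its cytosolic slope was -0.38 ± 0.17 (adjusted p = 0.0638).

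Ddx39b, also known as UAP56, is the helicase that joins THO to the adaptor (chromosome 17, 35241746 to 35253707, plus strand). Its nuclear ratios were 0.127, 0.609 and 0.582 at 30 min, 0.441, 0.357 and 0.508 at 60 min, 0.347, 0.338 and 0.314 at 120 min, and 0.144, 0.124 and 0.145 at 240 min. None of the 12 was above 1, whereas 6 total, 3 cytosolic and 7 membrane libraries were. At 240 min the nuclear values lay below all 9 of the other fractions, whose means were 0.655 ± 0.155 in total RNA, 0.704 ± 0.245 for cytosolic and 1.02 ± 0.369 for membrane RNA (SD, n = 3).

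The nuclear slope of Ddx39b was -0.44 ± 0.13 per h (limma, adjusted p = 0.00905), with a difference of -0.14 from the median gene. It was not called without the second or the third replicate, at -0.36 and -0.37 (adjusted p = 0.122 and 0.121), and was -0.58 (adjusted p = 2.03e-06) without the nuclear library that stood apart, whose value of 0.127 was the lowest at 30 min. The slopes in total RNA (-0.17 ± 0.087, adjusted p = 0.103), cytosol (-0.069 ± 0.13, adjusted p = 0.665) and membrane fraction (0.044 ± 0.13, adjusted p = 0.776) were not called. The replicates of Ddx39b differed widely, as at 60 min in the cytosol, where they were 1.42, 0.482 and 0.298. Its paralog Ddx39a, a helicase of the same kind, fell in all fractions, with slopes of -0.32 for total, -0.60 for nuclear, -0.42 for cytosolic and -0.27 for membrane-fraction RNA, and its nuclear minus membrane slope was -0.33 ± 0.089 (limma, adjusted p = 0.0225). The nuclear ratios of Ddx39a at 240 min were 0.117, 0.111 and 0.0684.

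Alyref, the adaptor that bridges the helicase to Nxf1 (chromosome 11, 120592121 to 120598365, minus strand), varied little in the nucleus. Its nuclear ratios were 0.878, 0.865 and 0.853 at 30 min, 0.962, 0.843 and 0.930 at 60 min, 0.926, 0.962 and 0.871 at 120 min, and 0.976, 0.891 and 0.903 at 240 min. The whole nuclear range was 1.16-fold, and the SD between replicates on the log2 scale, averaged over times, was 0.066, smaller than for all but 0.224% of genes. The nuclear slope was 0.020 ± 0.030 (limma, adjusted p = 0.578), 0.32 above the median gene.

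In the cytosol Alyref gave 0.951, 0.887 and 0.894 at 30 min and 0.753, 0.721 and 0.686 at 240 min, with a slope of -0.10 ± 0.022 (limma, adjusted p = 0.00145). Its membrane ratios were 0.845, 0.840 and 0.821 at 30 min, 0.645, 0.637 and 0.578 at 60 min, 0.646, 0.529 and 0.558 at 120 min, and 0.471, 0.636 and 0.684 at 240 min, so most of the drop there had occurred by 60 min. That slope was -0.11 ± 0.050 (adjusted p = 0.0821), and -0.32 (adjusted p = 0.0142) when only 30, 60 and 120 min were fitted. In total RNA it was -0.044 ± 0.029 (adjusted p = 0.219). The paralog Alyref2 fell in all fractions, with slopes of -0.84, -0.60, -0.84 and -0.70 in total, nucleus, cytosol and membrane, and ratios of 0.0264, 0.318 and 0.0860 in total RNA at 240 min.

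Ncbp1, the large subunit of the nuclear cap-binding complex (chromosome 4, 46138613 to 46172403, plus strand), fell in every fraction, near the slope of the median gene. Its total RNA ratios were 0.891, 1.00 and 0.921 at 30 min, 0.813, 0.851 and 0.850 at 60 min, 0.676, 0.723 and 0.762 at 120 min, and 0.570, 0.536 and 0.512 at 240 min, and no 2 time points overlapped. The slopes were -0.22 ± 0.024 for total, -0.19 ± 0.037 for nuclear, -0.29 ± 0.025 for cytosolic and -0.32 ± 0.054 for membrane-fraction RNA (limma, adjusted p = 4.56e-06, 0.000543, 4.89e-07 and 0.000196). The difference from the median gene was 0.00037 in total RNA and between -0.063 and 0.11 in the 3 fractions. Half-lives were 264 ± 41.5 min for total, 313 ± 119 min for nuclear, 215 ± 27.0 min for cytosolic and 151 ± 41.8 min for membrane-fraction RNA (SD over 3 replicate series). Tstd2 and Xpa overlap Ncbp1, and Usp14 overlaps Thoc1, on the opposite strand and were listed in all 48 libraries. The library kit kept strand, but whether the counting used it is not given in the sources used here.

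Pabpn1 binds growing poly(A) tails in the nucleus (chromosome 14, 54892500 to 54898169, plus strand). Its replicates went against each other in total RNA: the first gave 0.123, 0.258, 0.193 and 1.03 at 30, 60, 120 and 240 min, while the second gave 1.16, 0.859, 0.826 and 0.451 and the third 1.04, 0.810, 0.933 and 0.281. The first replicate was lowest at 30, 60 and 120 min and highest at 240 min. The replicate SD on the log2 scale was 1.26, larger than that of 99.97% of genes. The total RNA slope was -0.029 ± 0.23 (limma, adjusted p = 0.925) over all replicates and -0.44 ± 0.074 (adjusted p = 0.00121) without the first, and was 0.14 without the second and 0.22 without the third, so its direction in total RNA rests on which replicates are used.

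The nuclear ratios of Pabpn1 were 0.771, 1.08 and 0.387 at 30 min, 0.185, 0.451 and 0.655 at 60 min, 0.547, 0.277 and 0.324 at 120 min, and 0.162, 0.174 and 0.255 at 240 min. The 240 min values lay below all those at 30 min, and the slope was -0.45 ± 0.13 (limma, adjusted p = 0.00802), or -0.35 and not called (adjusted p = 0.107) without the second replicate. In the cytosol the slope was 0.060 ± 0.15 (adjusted p = 0.731). In the membrane fraction Pabpn1 was listed in 11 of 12 libraries, with 0.626, 0.205 and 0.202 at 30 min and 1.05, 0.40 and 0.747 at 240 min, and was not tested. The gene lies within a readthrough model, Gm20521, on the same strand, which was listed in 0 libraries, so how reads common to both were counted is not known.

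Zfc3h1, the zinc-finger protein that links Pabpn1-bound RNA to Mtrex and the exosome (chromosome 10, 115384959 to 115432772, plus strand), fell fastest in the cytosol. Its cytosolic ratios were 0.869, 0.926 and 0.988 at 30 min, 0.953, 0.897 and 1.11 at 60 min, 0.691, 0.618 and 0.695 at 120 min, and 0.280, 0.255 and 0.262 at 240 min. The membrane ratios were lower at the start and higher at the end, at 0.735, 0.672 and 0.664 at 30 min, 0.665, 0.698 and 0.718 at 60 min, 0.714, 0.589 and 0.816 at 120 min, and 0.471, 0.501 and 0.521 at 240 min. The 2 fractions did not overlap at 30, 60 or 240 min, and changed order between 60 and 240 min.

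In the nucleus Zfc3h1 gave 0.480, 1.08 and 0.801 at 30 min, 0.765, 0.898 and 0.934 at 60 min, 0.906, 0.712 and 0.642 at 120 min, and 0.518, 0.470 and 0.431 at 240 min, and all 3 of the last were above the 3 cytosolic values. The slopes were -0.23 ± 0.036 for total, -0.22 ± 0.070 for nuclear, -0.55 ± 0.042 for cytosolic and -0.14 ± 0.037 for membrane-fraction RNA (limma, adjusted p = 0.000116, 0.0139, 1.33e-07 and 0.00515). The nuclear slope was -0.17 or -0.18 and not called without the second or the third replicate (adjusted p = 0.170 and 0.157), and the membrane slope was -0.12 and not called without the first (adjusted p = 0.0764). The cytosolic half-life was 131 ± 13.1 min, against 285 ± 41 min for total RNA, 287 min for nuclear RNA, where the replicate series ran from 172 to 2023 min, and 474 ± 141 min in the membrane fraction. A fit held to 1 at 0 min gave 196 min for the membrane value, and without the first replicate the nuclear one was 190 min.

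**Figure D2:**
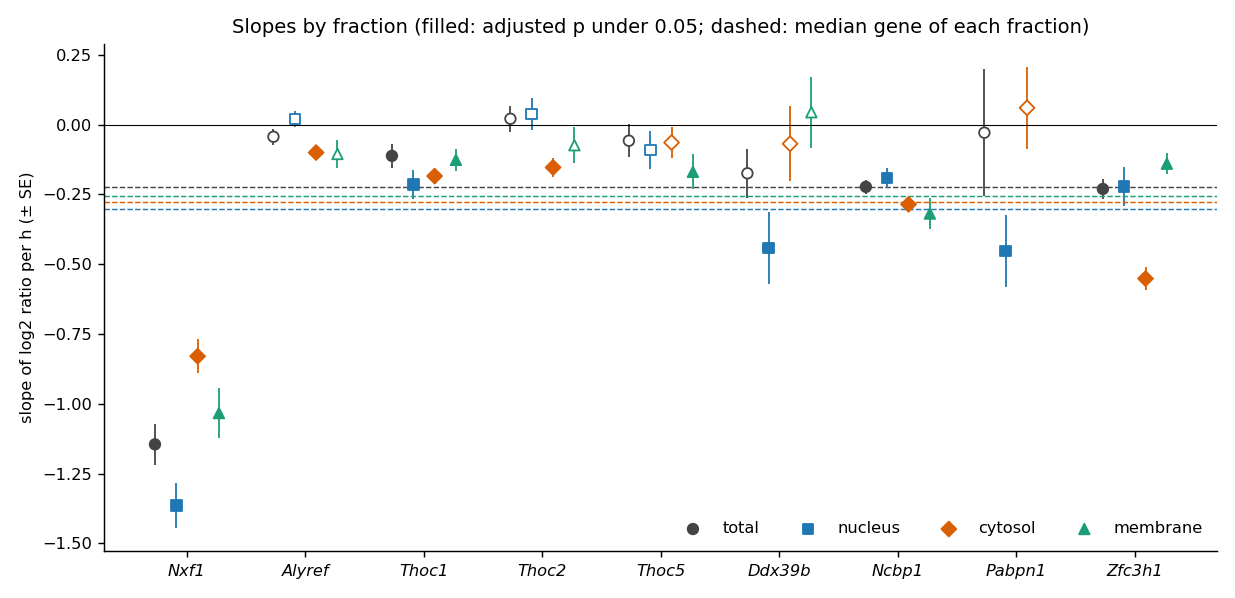
Slope of the log2 ratio per hour (± SE from limma) for the 9 factors tested, by fraction; filled symbols have an adjusted p under 0.05 and dashed lines mark the median gene of each fraction, between -0.22 and -0.30. Nxf1 sits far below the others at -0.83 to -1.36, and the cytosolic slope of Zfc3h1 (-0.55) stands below its other 3.

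Whether a factor changed faster in one fraction than in another was tested as an interaction of time and fraction over 24 libraries. Between nucleus and cytosol, 1 of 9 factors had the lower slope in the nucleus, against 8.3% of 11232 genes, and 3 had the lower slope in the cytosol, against 12.3%. Nxf1 was the factor that fell faster in the nucleus, with a nuclear minus cytosolic slope of -0.53 ± 0.097 per h (limma, adjusted p = 0.000632). This rests on the late, low ratios, since with 0.1 or 1 added to every ratio before the log the difference was -0.076 (adjusted p = 0.567) and 0.071 (adjusted p = 0.253).

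Zfc3h1, Thoc2 and Alyref had a lower slope in the cytosol than in the nucleus, and of these only Zfc3h1 was called falling in both. The nuclear minus cytosolic slope was 0.33 ± 0.083 for Zfc3h1 (limma, adjusted p = 0.00727), 0.19 ± 0.066 for Thoc2 (adjusted p = 0.0421) and 0.12 ± 0.032 for Alyref (adjusted p = 0.00997). The Zfc3h1 call was lost without the third replicate (0.35, adjusted p = 0.0877), and those of Thoc2 and Alyref were lost without any 1 of the 3 (adjusted p from 0.0836 to 0.293 and from 0.0663 to 0.135). Leaving out the nuclear 30 min library that stood apart gave 0.15 for Thoc2 (adjusted p = 0.0551), and for Ddx39b, at -0.37 ± 0.19 (adjusted p = 0.172) over all libraries, it gave a called difference of -0.51 (adjusted p = 0.0185). Without the first replicate the Ddx39b difference was -0.71 (adjusted p = 0.0153). Pabpn1 gave -0.51 ± 0.20 (adjusted p = 0.0734).

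Between membrane and cytosol no factor had the lower slope in the membrane fraction (1.76% of 11086 genes did) and 1 of 8, Zfc3h1, had it in the cytosol (4.94%). Its difference of 0.41 ± 0.055 (limma, adjusted p = 6.77e-05) was larger than that of 97.7% of genes and was called without each replicate in turn (adjusted p from 0.00690 to 0.0170), but not with the mitochondrial scaling (0.12, adjusted p = 0.388) or over 30, 60 and 120 min alone (0.36, adjusted p = 0.0748). With the mitochondrial scaling only 2 of 11086 genes had the lower slope in the cytosol. Thoc7 and Zfc3h1, from different complexes, both had membrane slopes above their cytosolic ones.

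Between nucleus and membrane 0 of 8 factors passed by limma, where the nuclear slope was the lower one for 6.16% of 11643 genes and the membrane slope for 2.19%. At an unadjusted p under 0.05 by limma there were 3 of 8, against 23.7% of genes, namely Nxf1 (-0.33), Ddx39b (-0.49) and Alyref (0.13). Without the nuclear library that stood apart, Nxf1 (-0.40, adjusted p = 0.0199) and Ddx39b (-0.62, adjusted p = 0.00773) were called, as was Nxf1 without the first replicate (-0.54, adjusted p = 0.00512). The direction for Nxf1 depended on the pseudocount, since with 0.1 or 1 added to every ratio its difference was 0.11 (adjusted p = 0.541) and 0.20 (adjusted p = 0.0113), and it was -0.0032 with the mitochondrial scaling (adjusted p = 0.987).

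**Figure D3:**
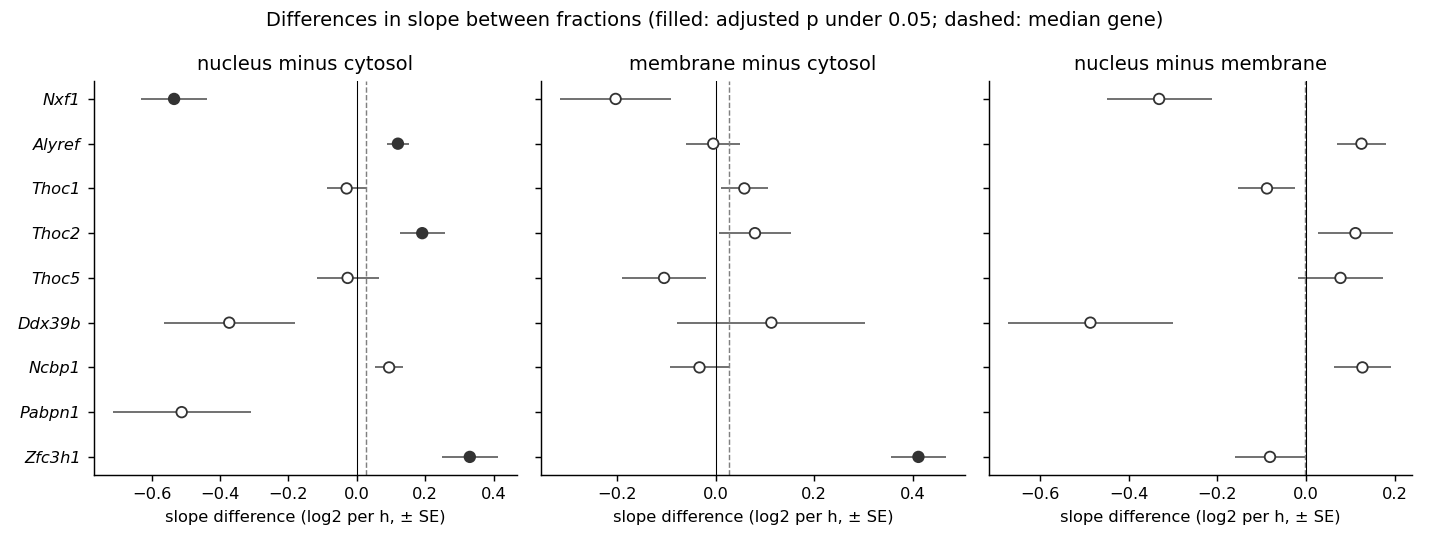
Difference in slope between fractions (log2 per h, ± SE) for each factor; filled points have an adjusted p under 0.05, and the dashed line is the median gene. The called differences are Nxf1 (-0.53), Zfc3h1 (0.33), Thoc2 (0.19) and Alyref (0.12) for nucleus minus cytosol and Zfc3h1 (0.41) for membrane minus cytosol.

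The order of the factors by the share left at 240 min was in part the same in each fraction. In total RNA the means ran from 0.0710 for Nxf1 through 0.463 for Zfc3h1, 0.539 for Ncbp1, 0.588 for Pabpn1, 0.655 for Ddx39b, 0.684 for Thoc1, 0.795 for Alyref and 0.859 for Thoc2 to 1.11 for Thoc5. Neighbours from Ncbp1 to Thoc1, and Thoc2 with Thoc5, overlapped in their replicates. Nxf1 was lowest in all 4 fractions and overlapped no other listed factor in any of them. Ddx39b came next in the nucleus at 0.137 and was highest in the membrane fraction, where neighbours from Ncbp1 upward all overlapped.

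**Figure D4:**
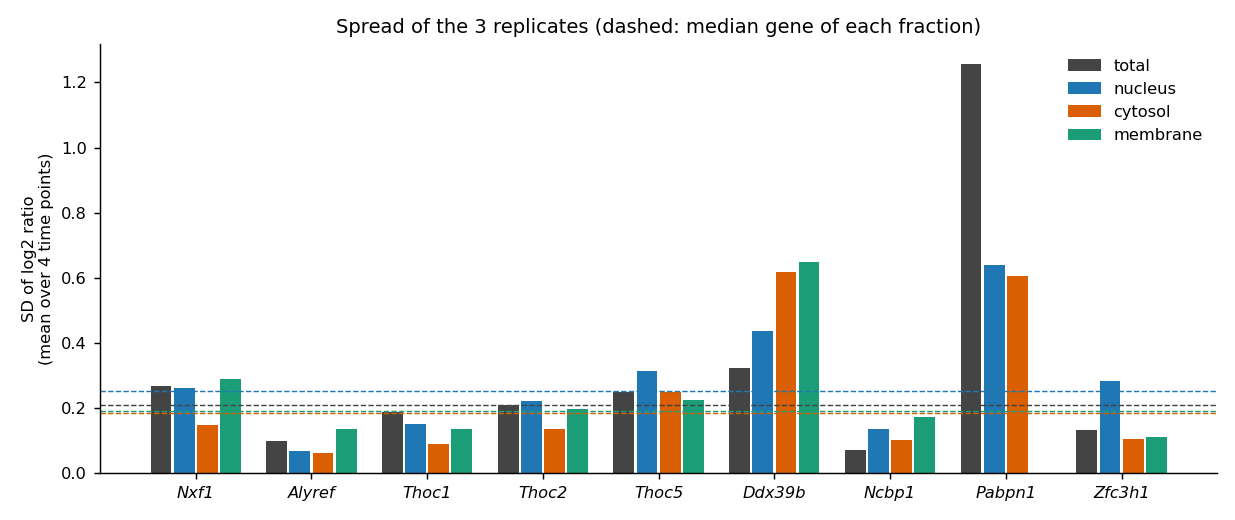
Standard deviation of the log2 ratio between the 3 replicates, averaged over the 4 time points, for each factor and fraction; dashed lines are the median gene of each fraction (0.186 to 0.253). Pabpn1 in total RNA is highest at 1.26, Ddx39b reaches 0.649 in the membrane fraction, and Alyref in the cytosol is lowest at 0.060.

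The gene with the most similar time course to each factor was taken as the one with the smallest root mean square difference over the 16 group means of the log2 ratio, among 10694 genes listed in every library. These means share their libraries and scaling, and likeness on them is a description only. Alyref was nearest to Gm17232 (0.088), Ncbp1 to Tomm70a (0.093), Thoc1 to Fanci (0.099), Thoc2 to Ide (0.11), Zfc3h1 to Ttc19 (0.18), Thoc5 to 1700018A23Rik (0.20) and Ddx39b to Htra2 (0.34). Nxf1 had no near match, with Vstm5 at 0.55 the closest, and its nearest other factor was Ddx39b at 1.46. Among the factors the smallest distance was between Alyref and Thoc2, at 0.21, both of TREX. Thoc1 and Ncbp1 were each other's nearest, at 0.29.

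The factors also differed in their 3′ untranslated regions (UTRs), where the AU-rich motif ATTTA is known from many short-lived mRNAs. In the coding transcript model used for each gene (GENCODE, GRCm38), Nxf1, Nxt1, Thoc5, Ncbp1 and Pabpn1 held 0 matches on the sense strand, Alyref and Ddx39b held 1 each, Zfc3h1 held 2, Thoc1 held 3 and Thoc2 held 8. At least 1 match was found in 67.6% of the 9714 genes tested in total RNA with a coding model, and the longer motif TATTTAT, which contains the shorter, in 28.3% but in none of the factors. The 3′ UTRs had 310 bases in Nxf1, 264 in Nxt1, 113 in Pabpn1, 127 in Thoc5, 2732 in Alyref and 2807 in Thoc2, against a median of 1049. Nxf1 thus held 0 matches in 310 bases and Thoc2 held 8 in 2807, and whether matches go with the slopes was not tested. A match describes letters in these models and is not a known site, and no match says only that these letters are not in this window. The matches of the 3 factors with 1 or 2 are shown, 21 bases each, with ATTTA in capitals.
Alyref, chr11:120592306-120592326, minus strand: tctagtggATTTAtaagaagt
Ddx39b, chr17:35253619-35253639, plus strand: tagtcctgATTTAtcagagtt
Zfc3h1, chr10:115432418-115432438, plus strand: tgtttgggATTTAgtttccag
Zfc3h1, chr10:115432733-115432753, plus strand: aaattttaATTTAtaataaag

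Genes that work with the factors were followed as 9 lists, some of which also hold the factors themselves. The TREX list includes Thoc1, Thoc2, Thoc5, Ddx39b and Alyref, so its counts and medians partly repeat values given above. All list counts stand against the 56.9% of all genes that fell in total RNA and the 61.9%, 67.1% and 62.2% in nucleus, cytosol and membrane. The median slopes of all genes there were -0.22, -0.30, -0.28 and -0.26. Of the TREX list, 5 of the 11 genes tested fell in total RNA and the median slope was -0.10, above the -0.22 of all genes, from Alyref2 at -0.84 ± 0.18 (limma, adjusted p = 0.00156) to Thoc7 at 0.028 ± 0.035 (adjusted p = 0.514). Among nuclear transcripts 5 of 11 fell, among cytosolic ones 9 of 12 and among membrane ones 5 of 11, with medians of -0.091, -0.14 and -0.11. The TREX-2 list, a complex tied to the inner side of the pore, had 2 of 6 falling in total, 4 of 6 in nuclear, 4 of 6 in cytosolic and 2 of 6 in membrane RNA, with medians of -0.11, -0.14, -0.14 and -0.10, and ran in total RNA from Mcm3ap at -0.37 (adjusted p = 6.28e-08) to Sem1 at -0.025 (adjusted p = 0.488). Of the export receptor list only Nxf1 and Nxf3 (0.017, adjusted p = 0.842) were tested in total RNA.

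Of the 6 genes of the cap-binding list 4 were tested, and all 4 fell in every fraction, against 56.9% to 67.1% of all genes. Its median was -0.35 in total RNA and -0.29, -0.41 and -0.39 in nucleus, cytosol and membrane, from Phax, the adaptor of small nuclear RNA export, at -0.62 (limma, adjusted p = 1.36e-06) to Ncbp1 at -0.22. The list of the PAXT and nuclear exosome targeting (NEXT) connections held 8 genes. The NEXT subunits Zcchc8 and Rbm7, listed in 0 and 6 libraries, were not tested, so no gene specific to NEXT was measured. The list had 5 of 6 falling in total, 6 of 6 in nuclear, 5 of 6 in cytosolic and 5 of 5 in membrane RNA. Its medians were -0.35, -0.42, -0.47 and -0.43. Its lowest was Rbm26 at -1.0 (adjusted p = 4.61e-07) and its highest was Pabpn1.

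Of the RNA exosome genes 11 of 12, 10 of 11, 11 of 12 and 10 of 11 fell in total, nucleus, cytosol and membrane, against 56.9%, 61.9%, 67.1% and 62.2% of all genes, with medians of -0.19, -0.27, -0.27 and -0.25 near those of all genes. It ran in total RNA from Exosc4 at -0.92 (limma, adjusted p = 5.53e-08) to Exosc5 at 0.068 (adjusted p = 0.353), both core subunits. Of the pore proteins 8 of 10, 8 of 10, 8 of 10 and 8 of 9 fell, with medians of -0.27, -0.29, -0.30 and -0.36, from Nup153, a protein of the nuclear basket, at -0.84 (adjusted p = 2.40e-08) to Tpr, another basket protein, at 0.036 (adjusted p = 0.795). Of the cleavage and polyadenylation genes 9, 11, 13 and 11 of 15 fell, with medians of -0.27, -0.40, -0.41 and -0.28, from Papolg, a poly(A) polymerase, at -0.85 (adjusted p = 3.80e-06) to Sympk, a scaffold, at 0.018 (adjusted p = 0.696). Of the exon junction core 1 of 3, 1 of 2, 2 of 3 and 2 of 2 fell, with medians of -0.046, -0.11, -0.12 and -0.25, from Eif4a3, its RNA helicase, at -0.29 (adjusted p = 5.19e-07) to Magoh at -0.016 (adjusted p = 0.691).

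**Figure D5:**
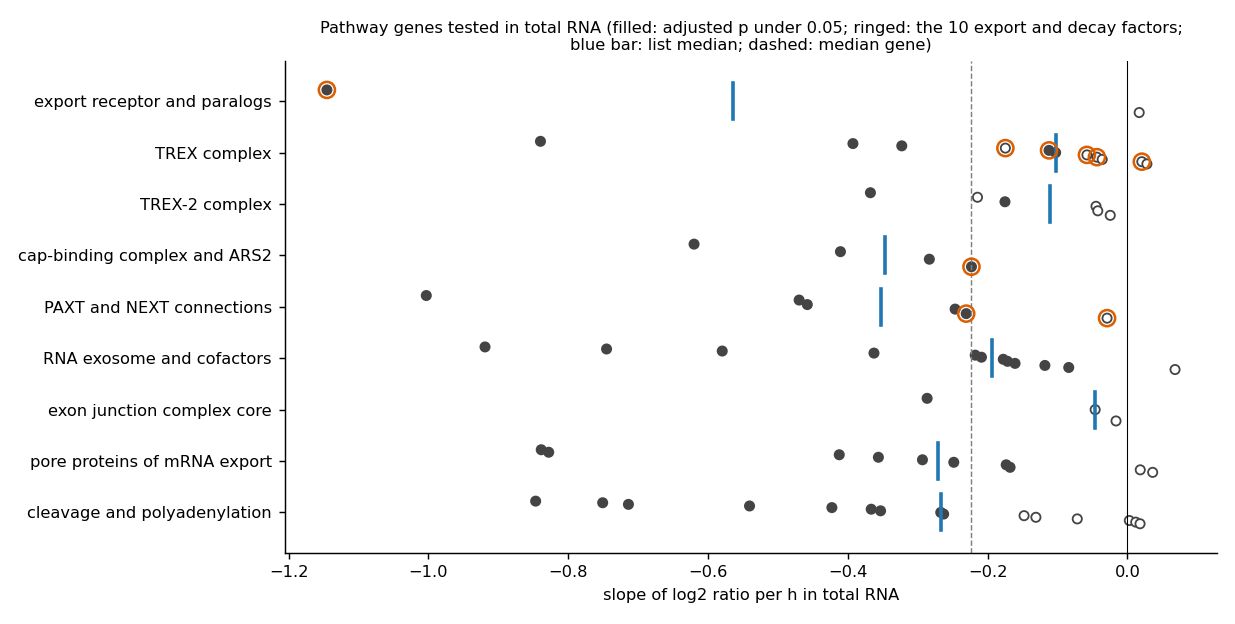
Slope of the log2 ratio per hour in total RNA for every tested gene of 9 lists; filled points have an adjusted p under 0.05, orange rings mark the chosen factors, blue bars are list medians and the dashed line is the median gene (-0.22). Medians run from -0.56 for the 2 export receptor genes to -0.046 for the exon junction core, and the ringed TREX genes lie to the right of the dashed line.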

How the data were processed

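Polyadenylated RNA from total extract, nucleus, cytosol and membrane fractions of flavopiridol-treated E14TG2a cells was sequenced with a stranded kit in 48 libraries. Per the submitters' processing notes, the authors used STAR 2.7.6, RSEM 1.3.3 and the mm10 build. The deposited values are linear ratios, made by the authors by scaling each library on genes known to be long-lived and dividing by the 0 min level. Genes at 0 are not listed, and the files hold no counts, so read depth is unknown and no counting interval is given. The precision given is that of the replicates, and the part of their spread due to low read numbers was not tested. Sample titles give the last time as 240 min and the harvest protocol as 180 min, and 240 min was used.

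Slopes of the log2 ratio on time, with no pseudocount, were fitted with limma 3.58.1 (R 4.3.3, lmFit and eBayes with trend, two-sided, Benjamini-Hochberg over all genes) to genes that each of a fraction's 12 libraries lists, or all 24 of a fraction pair for the interaction. Half-lives come from least squares of an exponential in Python 3.11.15 with NumPy 2.4.6, with both the starting level and the rate fitted. Scripts were tested on simulated data. Gene models and symbols are from GENCODE (GRCm38).

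The 10 factors and the 9 lists were chosen with earlier results of these data known. Genes named beside the factors are paralogs and THO subunits, the lowest and highest slope of each list in total RNA, and the nearest time course. Groups follow the sample labels. Alternatives covered pseudocounts, listing filters, scaling, time points, replicate blocks and left-out replicates.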

Additional observations from a re-analysis of the deposited data

Results flagged for a closer look

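Differences in slope between fractions that passed the interaction test are collected here with the values on either side. Nxf1 had a nuclear minus cytosolic slope of -0.53 per h, from -1.36 in the nucleus and -0.83 in the cytosol. For Zfc3h1 that difference was 0.33, from -0.22 and -0.55, and its membrane minus cytosolic slope was 0.41, with -0.14 in the membrane fraction. Thoc2 gave 0.19 for nucleus minus cytosol, from 0.038 and -0.15. Alyref gave 0.12, from 0.020 and -0.10. The calls of Thoc2 and Alyref were lost without any 1 replicate, and that of Zfc3h1 between nucleus and cytosol without the third. Nxf1 was not called with 0.1 or 1 added to every ratio. None of these differences was called with the mitochondrial scaling or over 30, 60 and 120 min alone. With that scaling, however, only 7 and 1 of 11232 genes were called between nucleus and cytosol. Only 2 of 11086 were lower in cytosol than in membrane. The losses under it thus say nothing particular about the factors. Fractions of one harvest come from the same cells, and each is a ratio to its own 0 min level. The order of these differences was not tested.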

How the results depend on the processing

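Of the alternatives to the fit as described, the scaling of the libraries moved most values. Centred on the median gene, the factors falling and rising were 1 and 4 in total RNA, 1 and 4 for nuclear, 2 and 4 for cytosolic and 1 and 4 for membrane RNA, 2 factors had a lower slope in membrane than in nucleus, and the median half-life of the factors, otherwise 518 min for total, 287 min for nuclear, 418 min for cytosolic and 458 min for membrane RNA, was not finite in any fraction. By construction centring adds the median gene's fall back to every slope, and these turned positive with at least 1 of both fits past the threshold: Thoc1 0.12, Alyref 0.19, Ncbp1 0.0056 and Thoc5 0.17 in total RNA; Thoc1 0.10, Ncbp1 0.12, Zfc3h1 0.095 and Thoc5 0.22 in the nucleus; Thoc1 0.097, Alyref 0.18, Thoc5 0.22 and Thoc2 0.13 in the cytosol; Thoc1 0.13, Alyref 0.16, Zfc3h1 0.12, Thoc5 0.092 and Thoc2 0.19 in the membrane fraction. Scaled to mitochondrially encoded mRNAs, 8 factors fell in total, 1 in nuclear and 2 in cytosolic RNA, with Thoc2 at -0.10 in total RNA, Ncbp1 at 0.0012 in the nucleus and Alyref at 0.058 and Thoc2 at 0.0042 in the cytosol. No factor then differed between nucleus and cytosol in either direction (0 and 0), 1 was lower in membrane than in cytosol and 0 the other way, and 4 were lower in membrane than in nucleus, while median half-lives were 256 min for total, 1464 min for nuclear and 127 min for membrane RNA and not finite for cytosolic RNA. Over all genes, centring put the slope lower in membrane than in nucleus for 1142 of 11643. With the mitochondrial scaling 7 and 1 of 11232 genes were called between nucleus and cytosol. The slope was then lower in membrane than in cytosol for 797 of 11086 genes, and than in nucleus for 4136 of 11643. The cause of the mitochondrial result was not tested.

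With 30, 60 and 120 min only, which leaves fewer libraries, 2, 2 and 3 factors fell in total RNA, nucleus and cytosol, 0 differed between nucleus and cytosol either way, 0 were lower in cytosol than in membrane, 2 were lower in membrane than in nucleus, the slope of Alyref was 0.0028 in the cytosol and that of Zfc3h1 0.014 in the membrane fraction, and half-lives were 388 min in total RNA and 156 min in the membrane fraction. Over these 3 times 6480 of 12762, 5273 of 13343 and 6026 of 11979 genes fell in total RNA, nucleus and cytosol. Between nucleus and cytosol 544 and 387 of 11232 genes were called. The slope was lower in cytosol than in membrane for 243 of 11086, and lower in membrane than in nucleus for 486 of 11643. With 0.1 or 1 added, 0 and 0 factors were lower in the nucleus than in the cytosol, where 504 and 210 of 11232 genes were. With 1 added, 1 was lower in the cytosol than in the nucleus, 1 was lower in membrane than in nucleus, and Nxf1 differed by 0.071 for nucleus minus cytosol and 0.20 for nucleus minus membrane, since an added constant flattens low ratios. Over all genes 795 of 11232 were then lower in cytosol than in nucleus, and 145 of 11643 in membrane than in nucleus. With genes listed in at least 6 of the 12 libraries of a fraction, 1 factor, Pabpn1, was lower in nucleus than in membrane (-0.74, adjusted p = 0.0459 by limma), as were 644 of 16121 genes. That filter, which tests more genes, left 4 factors falling in total RNA with Nxt1 among them and Thoc1 lost (-0.11, adjusted p = 0.0555 by limma), and 2 lower in cytosol than in nucleus, with Thoc2 lost (0.19, adjusted p = 0.0587 by limma). Over all genes it gave 8192 of 17493 falling in total RNA and 1213 of 15515 lower in cytosol than in nucleus. The fit without trend and the filter on all 48 libraries moved no count of factors by over 1.5 times. With the starting level fixed at 1, half-lives were 375 min in total RNA and 203 min in the membrane fraction, and with the last time at 180 min 378 min in total RNA.

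Leaving out 1 replicate or the nuclear library that stood apart gave 3 to 7 factors falling in nuclear RNA, fewest without the second replicate, 2 to 5 in membrane RNA, fewest without the first, 1 to 2 lower in nucleus than in cytosol, 0 to 2 lower in cytosol than in nucleus, 0 to 2 lower in nucleus than in membrane, and a half-life of 429 to 529 min in total RNA. Over all genes 6400 to 8688 of 13343 then fell in nuclear RNA and 6345 to 7214 of 12408 in membrane RNA. Of 11232 genes, 207 to 1176 were lower in nucleus than in cytosol and 337 to 1306 the other way. Lower in nucleus than in membrane were 70 to 924 of 11643. Of 827 refitted slopes and differences, 39 changed sign with neither fit called, and these were given no direction. Replicate numbers hardly paired the samples: deviations of same-numbered libraries correlated between -0.060 and 0.19 over times, with 3 of 72 pairs over 0.1, and between -0.095 and 0.15 over fractions of a harvest. Those 3 pairs were all of the first replicate of total RNA, among 30, 60 and 120 min. The SDs of half-lives over replicate series thus join libraries that share a number and were not shown to form a series. A replicate block left 4, 6, 6 and 5 factors falling and changed 1 call, Thoc2 between nucleus and cytosol (0.19, adjusted p = 0.0590 by limma), so 2 in place of 3 were lower in the cytosol. With that block 7250 of 12762, 8057 of 13343, 8059 of 11979 and 7622 of 12408 genes fell. The slope was lower in cytosol than in nucleus for 1141 of 11232. Without counts, how read depth limits these values was not tested. Replicate SDs were larger than for 92.5% of genes for cytosolic Pabpn1. For Ddx39b they exceeded those of 93% in cytosol and 94.3% in the membrane fraction. Whether few reads lie behind this scatter, or behind the values of Nxt1 and Nxt2, was not tested. The slopes and slope differences of these genes carry that limit.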
